A study of Mus musculus with 11 samples.

Results

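The genes described here are Fos, Fosb, Fosl2, Jun, Junb and Jund, which encode AP-1 transcription factors, together with Atf3. They were read in mouse liver after an injection of 5'-adenosine monophosphate (5'-AMP). Fosl1, a further Fos family gene with 1 probe on the array, was not among those chosen. Members were found by gene symbol. Of the 45281 probes, 10 carried the symbol of 6 of the genes, and 1 more, labelled Jund1, was matched to Jund through its synonym in the RefSeq gene table. The 7 genes thus had 11 probes, out of 31508 symbols on the array. The genes were chosen with their differences from control in these same arrays already known, so those differences are given as a description.

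AP-1 is a family of transcription factor dimers of the basic leucine zipper (bZIP) class. A Fos protein cannot pair with itself and needs a Jun partner, while Jun proteins pair with each other or with Fos proteins, and the dimers bind DNA at the TPA response element. Most Fos and Jun genes are immediate early genes, transcribed within minutes of a stimulus from factors already present in the cell, with short-lived mRNAs. Atf3 belongs to the related ATF/CREB family, pairs with Jun proteins among others and is induced by many kinds of cell stress. In the liver, Jun is known for its part in hepatocyte survival and regeneration.

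The animals were female C57Bl/6 mice, whose liver RNA was read on Illumina BeadChips with 1 array per mouse. The groups were mice killed 12 h after 5'-AMP at 0.5 mg/g body weight (4 arrays; RF or Rev Flip in the labels), mice killed 6 h after the same dose (4 arrays; AIHM) and vehicle controls (3 arrays). The kill time of the controls and the meaning of Rev Flip are not in the labels, so 5'-AMP, clock time and anything else that differed between these groups cannot be told apart. The labels name each array as a mouse of its own.

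Between 15131 and 15589 probes were detected on the 12 h arrays, 15403 to 15903 on the 6 h arrays and 15174 to 15663 on the controls, where detected means a detection p-value under 0.05. Array means of the deposited signal were 412 to 494 at 12 h, 458 to 635 at 6 h and 422 to 542 in controls. Hepatocyte markers bore out the tissue, with the lipoprotein gene Apoa1 at a log2 level of 14.92 to 15.33 at 12 h, 14.87 to 15.45 at 6 h and 14.96 to 15.29 in controls. The albumin probe used, labelled Alb1, was dim by comparison with its gene's known abundance, at 5.91 to 7.71 over all arrays. In whole liver RNA, fewer cells of a type and less RNA per cell cannot be told apart. Precision is limited by how many arrays there are.

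The letters upstream of the genes come first, because most members were higher than control at both times. RefSeq gives a start for each of the 7 genes, and the 250 bases before it were read from the GRCm38.p6 table. The 4 genes with the largest differences from control at 12 h are Atf3 (gene at chr1:191170296-191183333, minus strand, promoter window chr1:191183334-191183583), Fos (gene at chr12:85473890-85477274, plus strand, window chr12:85473640-85473889), Fosb (gene at chr7:19302696-19310118, minus strand, window chr7:19310046-19310295) and Junb (gene at chr8:84976909-84978748, minus strand, window chr8:84978749-84978998). For Fosb the window reaches into the annotated span of the gene, so its letters are not printed. Each of the other 3 is written 5′ to 3′ along the gene's own strand and ends at the base before the start. Capitals mark the matches to the core of the cAMP response element (TGACG, or CGTCA on the other strand) and, in Fos, the letters TATAAA.
Atf3: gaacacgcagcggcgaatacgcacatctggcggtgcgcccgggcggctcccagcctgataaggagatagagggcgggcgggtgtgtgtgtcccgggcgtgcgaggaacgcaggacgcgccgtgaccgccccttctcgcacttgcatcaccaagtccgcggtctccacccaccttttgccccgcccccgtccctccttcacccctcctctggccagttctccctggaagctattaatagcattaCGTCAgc
Fos: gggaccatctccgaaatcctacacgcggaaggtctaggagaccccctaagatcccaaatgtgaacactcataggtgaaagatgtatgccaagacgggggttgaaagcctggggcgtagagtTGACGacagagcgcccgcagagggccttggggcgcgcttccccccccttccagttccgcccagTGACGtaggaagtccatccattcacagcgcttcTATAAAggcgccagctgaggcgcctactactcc
Junb: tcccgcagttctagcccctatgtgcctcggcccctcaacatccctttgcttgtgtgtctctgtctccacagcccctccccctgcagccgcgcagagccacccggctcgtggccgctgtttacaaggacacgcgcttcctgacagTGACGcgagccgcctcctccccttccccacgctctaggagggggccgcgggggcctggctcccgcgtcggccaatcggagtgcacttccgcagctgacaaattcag
The core TGACG, searched on both strands, was present in 4 of the 7 member windows, those of Atf3, Fos, Fosb and Junb, and in 17.8% of the 32851 windows of the same length in the table. G and C made up 58.4% to 68.8% of these 4 windows and 47.6% to 64.4% of those without a match. The median over all windows was 52.4%, and the part of base content in the matches was not tested. Fos held 2 copies, starting 129 and 66 bases before its start. Fosb held 1 that began 60 bases before the end of its window, in the part that lies within the annotated span of the gene. Junb held 1 at 106 bases before its start and Atf3 1 at 7 bases, the last on the opposite strand. TATAAA lay 33 bases before the Fos start and in none of the other member windows, against 12.4% of all windows. The full palindrome TGACGTCA, which contains the core on both strands, the AP-1 site (TGACTCA or TGAGTCA) and the CArG box, the site of serum response factor, had no match in the 7 windows and matched 1.55%, 4.46% and 1.47% of all windows. A match describes letters only, and its absence says only that the letters are not in this window. Jun (gene at chr4:95049036-95052222, minus strand), Fosl2 (chr5:32136472-32157840, plus strand) and Jund (chr8:70697739-70700616, plus strand) had no match to any of these motifs.

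Of the 11 probes, 8 passed the filter on dim signals (detected on at least 3 of the 11 arrays) and 3 did not. The 3 were both further probes of Fosl2 (ILMN_2718801 and ILMN_2768924) and the further probe of Junb (ILMN_1254833), which were detected on none of the 11 arrays and stayed between 4.53 and 5.28 on the log2 scale. Fosb had 2 probes that passed and that gave different pictures. Below, a level is the log2 normalised signal of a probe, and a difference is between group means with the standard error (SE) of a limma fit to all 11 arrays. Levels of different probes are not compared.

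Each of the 7 genes had at least 1 probe that was higher after 5'-AMP than in controls. At 12 h 7 of the 8 tested probes passed an adjusted p of 0.05 and all 7 were higher. Of all 16978 tested probes 2.69% passed, 1.63% higher and 1.05% lower. At 6 h 6 of the 8 passed, all higher, where 0.807% of all probes passed, 0.542% higher and 0.265% lower. Since the members were picked with these contrasts known, nothing is read from the counts. The same 2 comparisons share the 3 control arrays. The median difference of the 8 probes was 4.22 at 12 h and 3.16 at 6 h, and that of all tested probes -0.02 and -0.01. In the plot of levels by array, 7 of the 8 probes show no overlap of either treated group with the controls, all higher. Groups were apart in the same way for 20.5% of all probes at 12 h, 9.92% higher and 10.6% lower, and for 13.3% at 6 h, 6.61% higher and 6.69% lower.

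**Figure D1:**
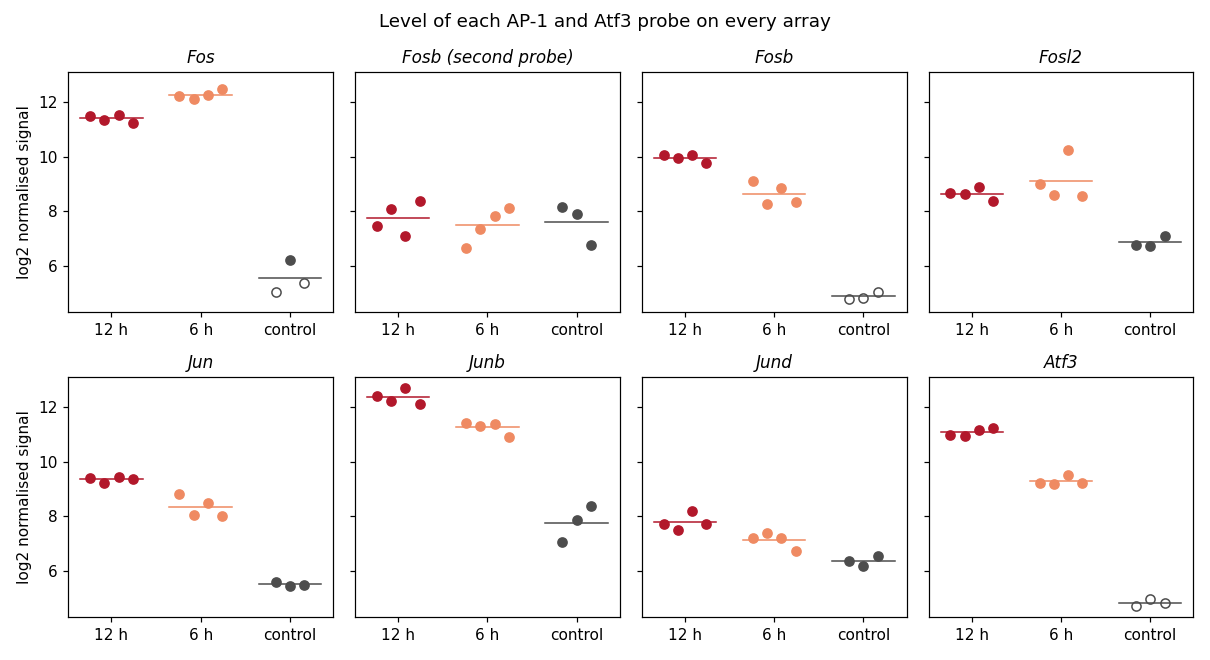
Each panel shows 1 probe, with the log2 normalised signal on the vertical axis and the 12 h, 6 h and control arrays side by side. Each point is 1 array (4, 4 and 3), an open point an array on which the probe was not detected, and the line the group mean. In 7 of the 8 panels both treated groups lie above every control, and the second Fosb probe shows overlapping groups.

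Fos (ILMN_2750515), the founding member of the Fos proteins, stood highest at 6 h. Its levels were 11.50, 11.34, 11.54 and 11.23 at 12 h, 12.22, 12.12, 12.26 and 12.49 at 6 h, and 5.05, 6.20 and 5.38 in controls. The 3 groups did not overlap, and the controls were at the edge of detection, with 1 of 3 arrays detected against 4 of 4 at each time. Fos was higher than control by 5.86 ± 0.22 (SE) at 12 h and by 6.73 ± 0.22 at 6 h, which ranked 3rd and 1st among the differences of all tested probes. With each control array set at the higher of its own value and its lowest detected signal, the mean was 53.9-fold above control at 12 h and 98.5-fold at 6 h on the background-corrected scale. Folds of probes with dim controls depended on that correction. Without it the Fos differences were 4.52 at 12 h and 5.38 at 6 h, and the ratios of mean deposited signals, background included, were 20.2 and 47.0.

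Of the 7 leading probes, Fos was the one whose 12 h arrays all lay below its 6 h arrays. The 12 h mean lay below the 6 h mean by a difference of -0.87 ± 0.21 (95% interval -1.32 to -0.42) and the adjusted p of 0.0762 did not pass. The adjusted p ran from 0.00421 to 0.344 over the alternatives and was 0.0162 without control 2. In the signals as deposited, before any normalisation, Fos read 2525.1, 2340.7, 2516.2 and 2429.1 at 12 h, 4381.6, 6410.6, 4391.7 and 7611.2 at 6 h, and 106.0, 156.4 and 101.3 in controls. The ratio of the 12 h to the 6 h mean was 0.43 in those signals and 0.547 after normalisation. The 2 highest 6 h signals lay on the arrays with the highest mean signals of all probes, 635 and 607.

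Atf3 (ILMN_2619408) differed from Fos in the order of the times and stood highest at 12 h. Its levels were 11, 10.94, 11.18 and 11.24 at 12 h, 9.24, 9.20, 9.52 and 9.22 at 6 h, and 4.70, 4.99 and 4.84 in controls. The groups were far apart, and no control array detected the probe. On the background-corrected scale Atf3 was therefore at least 52.1-fold higher than control at 12 h and at least 15-fold higher at 6 h, with fitted differences of 6.25 ± 0.13 and 4.45 ± 0.13, ranked 2nd and 4th among all probes. These bounds do not hold across scalings: without background correction the differences were 4.56 and 2.87, and the ratios of mean deposited signals were 21.04 and 8.34. Between the times it rose by 1.79 ± 0.12 (95% interval 1.52 to 2.06, adjusted p = 3.8e-05), with all 4 arrays at 12 h above all 4 at 6 h. That adjusted p ran from 1.6e-06 to 0.0421 over the 23 alternatives that gave a value.

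Fosb, whose protein is best known for the long-lived truncated form that builds up in brain, had 2 tested probes with different values. The leading probe (ILMN_2778279), the one with the higher mean, stood at 10.06, 9.94, 10.04 and 9.75 at 12 h, at 9.11, 8.27, 8.85 and 8.32 at 6 h, and at 4.78, 4.81 and 5.05 in controls. No control array detected it and every treated array did. On the background-corrected scale it was at least 23.7-fold higher than control at 12 h and at least 9.54-fold higher at 6 h, with fitted differences of 5.07 ± 0.20 and 3.76 ± 0.20. Without that correction the differences were 3.45 and 2.29, and the ratios of mean deposited signals were 9.79 and 5.50, below those bounds. It rose between the times by 1.31 ± 0.18 (adjusted p = 0.00703, 0.00178 to 0.211 over the alternatives), with no overlap between the 12 h and the 6 h arrays. The highest of those p-values came with the chip as a fixed block.

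The second Fosb probe (ILMN_2491552) gave 7.46, 8.07, 7.09 and 8.39 at 12 h, 6.66, 7.34, 7.82 and 8.13 at 6 h, and 8.16, 7.91 and 6.77 in controls. It was detected on all 11 arrays, and the groups overlapped throughout. Its differences were 0.14 ± 0.41 from control at 12 h, -0.13 ± 0.41 from control at 6 h and 0.27 ± 0.38 between the times (95% interval -0.56 to 1.1, adjusted p = 0.80). Its levels lay closer within chips than within groups on the chips that held all 3 groups. On 1 chip it read 8.39 at 12 h, 8.13 at 6 h and 8.16 in the control. On another it read 8.07, 7.82 and 7.91 in that order of groups, and on one more 6.66 and 7.34 at 6 h and 6.77 in the control. The other 2 chips held a 12 h array each, at 7.46 and 7.09. Beside the group terms, the chip terms of this probe had the 27th largest F statistic of 16978 probes, with an adjusted p of 0.572 in limma's test on 4 residual degrees of freedom. Of all probes 0 passed that test and 1262 had an unadjusted p under 0.05. This chip test was chosen after the values were seen. The sequences of the probes were not used here, so which part of the gene each probe reads is not given.

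**Figure D2:**
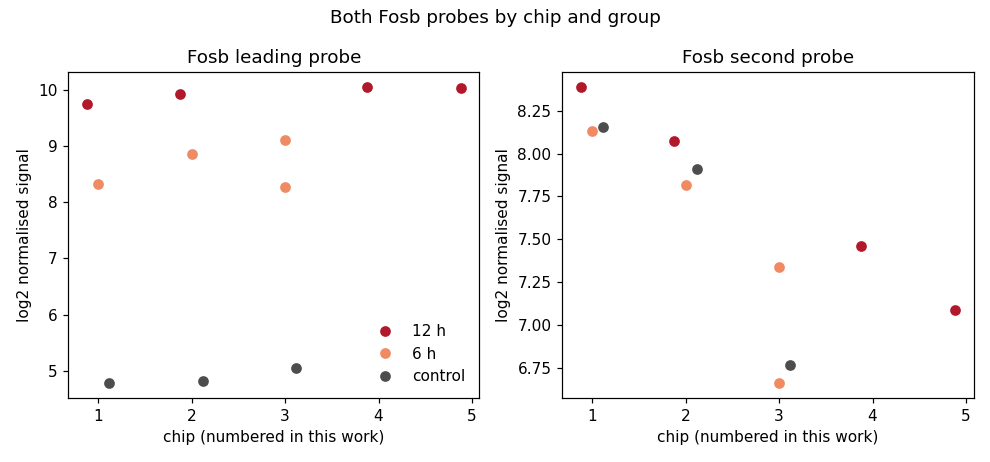
Log2 normalised signal of both Fosb probes (vertical axes, which differ in range) on each of the 5 chips (horizontal axis, numbered arbitrarily), coloured by 12 h, 6 h and control. The leading probe separates by group on every chip that holds several groups, and the second probe lies between 8.13 and 8.39 on chip 1 and between 7.82 and 8.07 on chip 2 whatever the group.

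Junb (ILMN_1220034), a Jun protein that often tempers the activity of Jun, stood highest at 12 h. Its levels were 12.40, 12.23, 12.71 and 12.13 at 12 h, 11.44, 11.30, 11.40 and 10.90 at 6 h, and 7.07, 7.88 and 8.39 in controls, the widest spread of controls among the leading probes. All 11 arrays detected it and the 3 groups did not overlap. It was higher than control by 4.59 ± 0.26 at 12 h and by 3.48 ± 0.26 at 6 h. The difference between the times was 1.1 ± 0.24 (95% interval 0.57 to 1.64), higher on all 4 of the 12 h arrays, with an adjusted p of 0.0629 that did not pass. It was 0.0201 without control 1 and 0.0318 without control 3, and 0.0158 to 0.219 over the alternatives.

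Jun (ILMN_2646625), the partner of the Fos proteins in the classical AP-1 dimer, stood at 9.41, 9.22, 9.46 and 9.38 at 12 h, at 8.83, 8.06, 8.50 and 8 at 6 h, and at 5.60, 5.47 and 5.48 in controls. All 11 arrays detected it, but the controls were near the edge of detection, with detection p-values of 0.027, 0.041 and 0.041. The control levels were tightly grouped and the 3 groups were apart. Jun was higher than control by 3.85 ± 0.18 at 12 h and by 2.83 ± 0.18 at 6 h, or by 2.62 and 1.75 without background correction. It rose between the times by 1.02 ± 0.17 (adjusted p = 0.0161), in 4 of 4 arrays. The adjusted p became 0.0562 with array 2 at 6 h left out, 0.0574 and 0.0584 with array 1 or array 4 at 12 h left out, and 0.366 with the chip as a fixed block, and its lowest value was 0.00331.

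Jund (ILMN_2682788) is the Jun gene that resting cells already express, and its differences from control were smaller than those of Jun and Junb. Its probe gave 7.74, 7.49, 8.20 and 7.73 at 12 h, 7.20, 7.41, 7.20 and 6.73 at 6 h, and 6.37, 6.20 and 6.57 in controls, with no overlap between any groups. The difference from control was 1.41 ± 0.19 at 12 h, or 2.66-fold. At 6 h it was 0.76 ± 0.19, which did not pass the threshold in the fit of all arrays and did so without 6 h array 4, at 0.88, and with median centring, at 0.94. Between the times it was 0.66 ± 0.18 (95% interval 0.27 to 1.04, adjusted p = 0.115), and this p stayed between 0.0796 and 0.442 over the alternatives.

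Fosl2 (ILMN_1252481), which encodes the Fos-related protein Fra-2, was the other member besides Fos with a higher mean at 6 h than at 12 h. The levels were 8.66, 8.63, 8.89 and 8.37 at 12 h, 8.99, 8.60, 10.23 and 8.57 at 6 h, and 6.76, 6.72 and 7.09 in controls. Array 3 at 6 h was the highest of the 11, and the 12 h and 6 h arrays overlapped. Fosl2 was higher than control by 1.78 ± 0.33 at 12 h and by 2.24 ± 0.33 at 6 h, or by 1.87 at 6 h without that array. The 12 h difference lost its call without control 1, at 1.73, without control 2, at 1.71, and with the chip as a fixed block, at 1.57. Between the times the difference was -0.46 ± 0.30 (95% interval -1.11 to 0.20, adjusted p = 0.523) and -0.08 without 6 h array 3, so the 12 h and 6 h levels were not told apart.

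**Figure D3:**
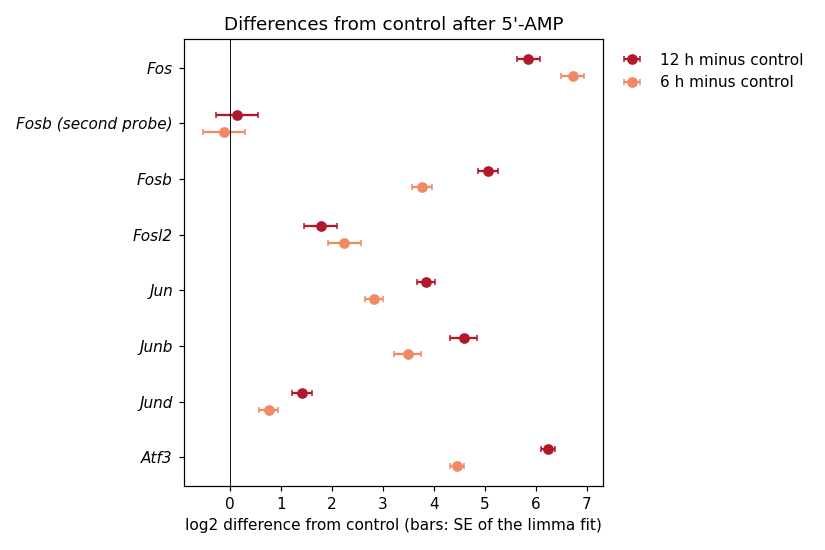
Log2 difference from control (horizontal axis) for the 8 tested probes (rows), at 12 h and at 6 h after 5'-AMP. Points are differences of group means and bars are the SE of the limma fit. Fos and Fosl2 lie further right at 6 h, the leading Fosb probe, Jun, Junb, Jund and Atf3 further right at 12 h, and the second Fosb probe lies at 0 within its SE at both times.

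The order of the group means was thus 12 h, 6 h, control for Atf3, the leading Fosb probe, Jun, Junb and Jund, and 6 h, 12 h, control for Fos and Fosl2. Within 12 h minus 6 h, a comparison that was not used to choose the genes, 3 of the 8 probes rose (Atf3, Fosb and Jun), where 0.872% of all tested probes passed, 0.471% higher and 0.401% lower. The other 5 did not pass. For 6 of the 8 the arrays did not overlap, 5 higher and 1 lower, as was so for 9.15% of all probes, 3.49% higher and 5.65% lower. With the chip as a fixed block, which left 4 residual degrees of freedom, Atf3 was the 1 member called, at 7 calls over all probes. The 12 h arrays 1 and 3 each lay alone on a chip, so in any fit with that block they add nothing to a difference.

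**Figure D4:**
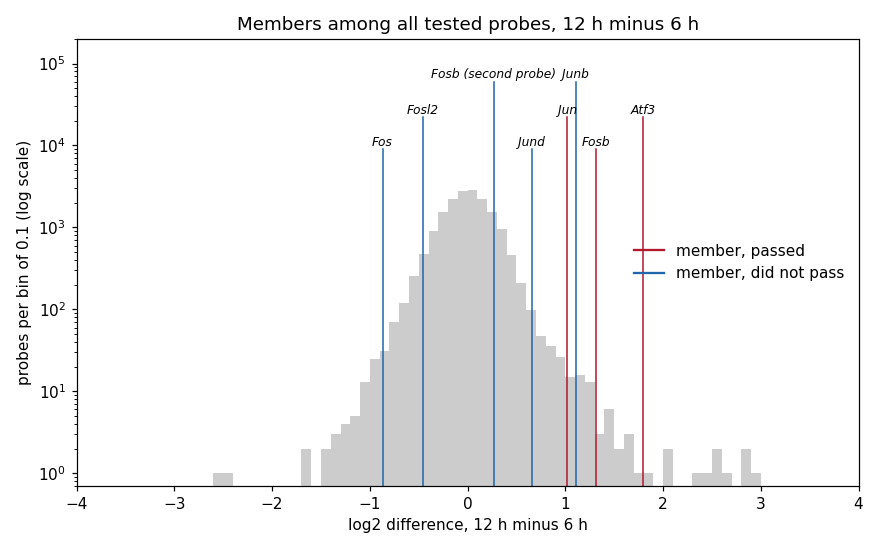
Grey bars count all 16978 tested probes by their log2 difference, 12 h minus 6 h (horizontal axis, bins of 0.1, log scale of counts). Vertical lines mark the 8 member probes, in red the 3 that passed and in blue the 5 that did not. Atf3 at 1.79 and the leading Fosb probe at 1.31 lie in the sparse right tail, and Fos at -0.87 in the left.

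Whether members differed from each other in this step was tested on the difference of 2 leading probes within each array, 12 h against 6 h, over all 21 pairs of the 7 genes. The test was an exact two-sided permutation test over the 8 arrays, whose smallest possible p is 0.0286, and it was added after the values were seen. In 16 of the 21 pairs the arrays did not overlap, each at that smallest p, which gave an adjusted p of 0.0375. The pairs share the same 7 probes and 8 arrays, and no share over pairs of all probes was computed. Nothing is therefore read from this count. The log2 difference of Fos minus that of the other gene was -2.66 for Atf3, -2.18 for Fosb, -1.97 for Junb, -1.89 for Jun and -1.53 for Jund, all among the 16. Fos and Fosl2 were not told apart, with a difference of -0.41 (exact permutation test, adjusted p = 0.42). Atf3 moved up relative to each of the other 6 genes, all among the 16, with -0.48 for Fosb minus Atf3 and -0.77 for Jun minus Atf3. Jun and Junb, at -0.08 between them, were not told apart (exact permutation test, adjusted p = 0.657), nor were Fosb and Junb, at 0.20 (exact permutation test, adjusted p = 0.379).

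The arrays lay on 5 chips, of which 2 held all 3 groups, with 1 array of each group. Each value in this paragraph is therefore 1 mouse against 1 mouse. Within those chips in turn, Atf3 was above control by 6.53 and 5.95 at 12 h, and by 4.51 and 4.53 at 6 h. Fos was above control by 6.17 and 5.13 at 12 h, and by 7.44 and 6.05 at 6 h. For 12 h minus 6 h within those chips, Atf3 differed by 2.02 and 1.41, the leading Fosb probe by 1.43 and 1.08, Jun by 1.38 and 0.73, Junb by 1.22 and 0.83, and Fos by -1.27 and -0.92. The direction of each of these was as over all arrays, among which these same arrays are counted.

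The genes with the most similar pattern were found by Pearson correlation of log2 levels over the 11 arrays, which share the 3 group levels, so values near 1 describe mostly those levels. For Fos they were Dusp1, a MAP kinase phosphatase gene (r = 0.987), Rgs1, a regulator of G protein signalling (0.98), and Gadd45g, a stress gene (0.973). Dusp1 differed by -0.24 and Gadd45g by 0.05 between 12 h and 6 h. For Atf3 they were Axud1 (now Csrnp1; r = 0.993), Cyr61 (now Ccn1; 0.992), which encodes a matrix-associated signalling protein, and the kinase gene Plk3 (0.982). Axud1 was also the nearest to Junb (0.988) and Plk3 the nearest to Fosb (0.987) and Jun (0.987). Sgk (now Sgk1), a serum- and glucocorticoid-regulated kinase gene, was among the 3 nearest to Fosb (0.987), Jun (0.98) and Junb (0.984). Snf1lk (now Sik1), a salt-inducible kinase gene, was near Jun (0.981), and Gdf15, a stress cytokine gene, near Junb (0.977). For Jund they were Per (now Per1; 0.96), Cebpb (0.959) and Ddit4, an inhibitor of mTOR signalling (0.955), and for Fosl2 the phosphodiesterase gene Pde4b (0.981), the amino acid transporter gene Slc38a2 (0.957) and the adhesion gene Ctnna1 (0.946).

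Genes around the members in the pathway were taken from textbook lists, and 3 of them were called against control, Maff, Srf and Mt2. Like the members, these lists and the marker lists were chosen with earlier results of these data known. Their p-values are therefore given as a description. Over all probes 2.69% were called at 12 h and 0.807% at 6 h. Of 5 measured genes for other bZIP partners of the Fos and Jun kind, of 12 listed, Maff rose. Maff, a small Maf protein that pairs with bZIP factors and lacks an activation domain, stood at 6.33, 6.12, 6.20 and 6.73 at 12 h, at 5.25, 4.90, 5.64 and 5.20 at 6 h, and at 5.31, 4.79 and 4.77 in controls. It was detected on 4 of 4 arrays at 12 h, on 1 of 4 at 6 h and on no control. It thus passed the filter on dim signals only through the 12 h arrays, where it is high, which is a further reason to read its tests as a description. On the background-corrected scale it was at least 1.95-fold higher at 12 h than in controls (adjusted p = 0.00222). That call was lost with the chip as a fixed block (adjusted p = 0.0613), and without background correction the difference was 0.65. It rose between the times by 1.1 ± 0.19 (adjusted p = 0.0187). The rise between the times lost its call without 6 h array 2, without 12 h array 1 or 4, with the authors' values and with the chip as a fixed block, where the adjusted p was 0.34.

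Of the factors known to act at the Fos promoter, 3 of 10 were measured, and Srf rose. Srf, the serum response factor, gave 8.76, 8.69, 8.59 and 8.64 at 12 h, 8.33, 8.26, 8.18 and 8.02 at 6 h, and 7.42, 7.55 and 7.49 in controls. Its 3 groups did not overlap. It rose over control by 1.18 ± 0.12 at 12 h (adjusted p = 8.25e-05) and by 0.71 ± 0.12 at 6 h (adjusted p = 0.0118). The 6 h call was lost without control 1 or 3, with the chip as a fixed block and with only the compared groups, and its adjusted p ran up to 0.106 over the alternatives. The list's medians, over 3 genes, were -0.09 at 12 h and 0.14 at 6 h.

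Among 10 measured ATF/CREB relatives of 14 listed, limma called 0 in any comparison, with 2 at an unadjusted p under 0.05 at 12 h, 0 at 6 h and 1 in 12 h minus 6 h. The medians were 0.01 at 12 h and 0.03 at 6 h. Ddit3, a stress-induced partner and dominant inhibitor of C/EBP factors, had the smallest p at 12 h, with a difference from control of -0.57 ± 0.24 (adjusted p = 0.25). Among 19 measured MAP kinases and their upstream kinases, of 22 listed, limma again called 0, with 1 at an unadjusted p under 0.05 at 12 h and 2 at 6 h. Their medians were -0.06 and 0.05. The smallest p at 12 h was that of Map3k7 (adjusted p = 0.18), which did not pass. Its probe was detected on 0 of 4 arrays at 12 h and on 3 of 3 controls, there at 5.42, 5.57 and 6.00. On the background-corrected scale Map3k7 was at least 1.22-fold lower at 12 h, a bound that was not computed on other scalings. Its other kept probe had a difference of 0.28. Of 7 measured regulators of AP-1 protein activity or turnover, of 10 listed, 0 were called, with 0 at an unadjusted p under 0.05 at 12 h and 1 at 6 h, and medians of -0.01 and 0.09. Sirt1, a deacetylase gene, had 0.28 ± 0.18 at 12 h (adjusted p = 0.432). Over all probes 2.69% were called at 12 h, 0.807% at 6 h and 0.872% in 12 h minus 6 h. In lists this short, 0 calls are therefore not read as an absence of change. The kinases and regulators act largely through protein modification, which RNA levels do not measure.

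Of 10 measured textbook targets of AP-1, of 19 listed, limma called 1 at 12 h, which rose, and 0 at 6 h, with 4 at an unadjusted p under 0.05 at 12 h and 2 at 6 h. Of those 4, Mt2 and Vegfa were higher than control and Tgfb1 and Odc1 lower. Of the 2 at 6 h, Vegfa was higher and Tgfb1 lower. Over all probes 2.69% were called at 12 h and 0.807% at 6 h. The medians were -0.18 at 12 h and -0.01 at 6 h. The gene that rose was Mt2, a metallothionein gene that is also a target of metals and glucocorticoids. It stood at 8.77, 9.25, 9 and 9.46 at 12 h, at 7.35, 6.91, 7.49 and 8.06 at 6 h, and at 7.71, 6.95 and 7.46 in controls. The 6 h arrays overlapped the controls and the 12 h arrays lay above both. Mt2 rose over control by 1.74 ± 0.26 at 12 h (adjusted p = 0.0025) and over 6 h by 1.67 ± 0.24 (adjusted p = 0.00868), a call lost with the chip as a fixed block (adjusted p = 0.105).

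**Figure D5:**
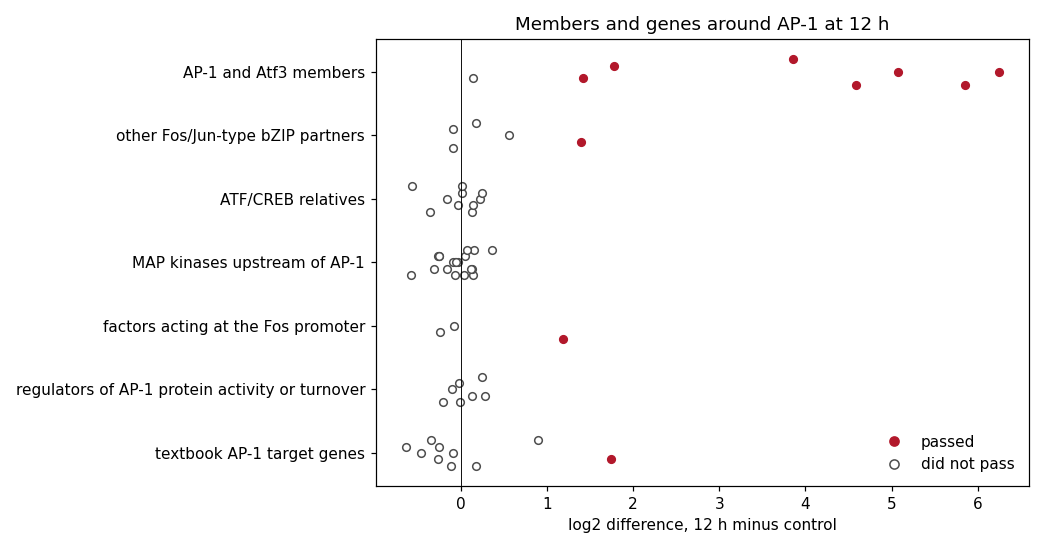
Log2 difference from control at 12 h (horizontal axis) of the 8 member probes (top row) and of the measured genes of 6 textbook lists (1 point per gene, spread vertically for legibility). Filled points passed an adjusted p of 0.05. The 7 called member probes lie between 1.41 and 6.25, and 3 other genes passed, Maff, Srf and Mt2.

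Markers of other cell types in the liver were also read. Of 7 listed neutrophil markers 4 were measured, with a summed linear signal of 148 to 384 at 12 h, 161 to 608 at 6 h and 76.1 to 276 in controls. S100a8, a calcium-binding protein gene of neutrophils, rose over control by 1.70 ± 0.41 at 12 h (adjusted p = 0.0492) and by 2.01 ± 0.41 at 6 h (adjusted p = 0.0453), and both calls were lost without any single control. The other measured neutrophil markers were not called. At 12 h and 6 h in turn, S100a9 differed by 1.18 and 1.42, Ltf by -0.32 and 0.0006, and Csf3r by -0.21 and -0.20. The list's medians were 0.48 and 0.71. Of 8 macrophage markers 7 were measured, with a summed signal of 2722 to 4327 at 12 h, 3065 to 7425 at 6 h and 4637 to 6925 in controls, and medians of -0.66 at 12 h and -0.41 at 6 h. Of 7 erythroid markers 4 were measured, at 50455 to 61281 at 12 h, 56034 to 70338 at 6 h and 26273 to 51099 in controls. Of 7 lymphocyte markers 3 were measured, at 45.8 to 72.7 at 12 h, 60.1 to 177 at 6 h and 100.9 to 131.7 in controls, with a median difference of -0.61 at 12 h and -0.06 at 6 h. Of 6 stellate cell markers 4 were measured, at 7727 to 8915 at 12 h, 9275 to 11536 at 6 h and 10118 to 11401 in controls, with medians of -0.44 and -0.19. The 12 h sums of both these lists, and those of the macrophage list, lay below every control. Endothelial sums were 762 to 941 at 12 h, 792 to 1077 at 6 h and 845 to 881 in controls, and cholangiocyte sums 497 to 718, 604 to 875 and 604 to 879 in the same order. Pancreatic acinar sums were 1096 to 1389 at 12 h, 1232 to 2517 at 6 h and 928 to 1161 in controls. The 6 h sums of the pancreatic acinar and erythroid lists lay above every control, but not every gene in them did. Of the 3 measured acinar genes, Cela1 alone had all 6 h arrays above every control, with a difference of 0.65. Clps, detected on 1 array per group, and Ctrb1 overlapped the controls, with differences of 0.81 and 0.14. Among the erythroid genes, Hba-a1 and Hbb-b1 lay above every control at 6 h, and Alas2 and Slc4a1 overlapped. The part of these cell types in the members' levels was not tested.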

How the data were processed

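Gene expression in liver of 11 mice was measured on 1 array each. Per the file headers, the deposited table without normalisation gives each probe an average signal, which is a linear intensity, and a detection p-value, which the authors exported from GenomeStudio per the submitters' processing notes (version not given in the sources used here). The authors' deposited normalised intensity table, judged from its values background-subtracted and quantile-normalised, served as an alternative. All deposited columns of values were used.

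Background was removed by normexp with the detection p-values, 16 was added, and after quantile normalisation log2 was taken (neqc of limma 3.58.1, R 4.3.3, statmod 1.5.0). The offset compresses differences of dim probes. Quantile normalisation assumes alike signal distributions. Kept were the 16978 of 45281 probes detected (p under 0.05) on 3 arrays or more. The 3 group means were fitted by limma to the 11 arrays together, with 8 residual degrees of freedom, two-sided moderated p-values adjusted by Benjamini and Hochberg over all kept probes and a threshold of 0.05. For the members, no p is given against control. A fold against a group with no array detected is a lower bound: the brighter group's mean against, per dim array, the higher of its own value and its lowest detected signal.

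Members and lists were chosen with earlier results of these data known. A gene of a list was represented by its kept probe with the highest mean. Named were every member probe, up to 3 called list genes with arrays that did not overlap per comparison (or the smallest p at 12 h where none was called), up to 2 called genes of a marker list and the 3 nearest patterns per leading probe, which is the kept probe with the highest mean. Clone names were left out of the last. Promoter letters are RefSeq's for GRCm38.p6. The fit was tested on simulated data. Other settings tried were signals without background correction, centring on medians, the authors' values, an offset of 50, no filter, a stricter filter (detection p under 0.01 on all 11 arrays), 1 probe per gene, weights per array, fits of only the compared groups, a robust variance with a trend, a block for replicate number or chip, and each array left out in turn.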

Additional observations from a re-analysis of the deposited data

Results flagged for a closer look

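Of 16 sets of 4 arrays (8 probes at 2 times), 1 held an array that stood apart, where chance alone gives about 5%. It was Atf3 at 6 h, with array 3 at 9.52 against 9.20 to 9.24 on the other 3, a gap of 0.867 of the group's range. It stayed far below every 12 h array.

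Differences from control that changed between the times were those of Atf3, at 1.79, of the leading Fosb probe, at 1.31, and of Jun, at 1.02 (log2, 12 h minus 6 h). All 3 were higher at 12 h. They are given with their tests in the report.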

How the results depend on the processing

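Every member difference from control that was called in the fit of all arrays kept its sign under all alternatives that gave a value. Between the times 1 value changed sign, that of the second Fosb probe without 6 h array 1 (-0.0083, adjusted p = 0.995 in limma; -0.0083 to 0.49 over all fits without 1 array). The stricter filter removed Fos, the leading Fosb probe, Jun and Atf3, whose controls were dim, so 3 member probes stayed called at 12 h (of 7), 2 at 6 h (of 6) and, as Junb alone passed, 1 between the times (against 3). Between the times 5 member probes, Fos and Junb included, were called without background correction, with median centring, with an offset of 50, with only the compared groups and with a robust trended variance, and 1 with the chip as a fixed block. Leaving out 1 array gave 6 to 7 called member probes against control at either time and 2 to 4 for 12 h minus 6 h. Over all probes 456 passed at 12 h, 137 at 6 h, and 148 for 12 h minus 6 h. They became 289 at 6 h and 260 between the times without background correction, 268 and 843 with median centring, and 250 and 230 with a robust trended variance. With only the compared groups they were 896 at 12 h and 62 at 6 h, with the chip as a fixed block 159 at 12 h, 67 at 6 h but 7 for 12 h minus 6 h, with the chip as a random block 231 at 6 h, with array weights 942 at 12 h, and with the stricter filter 301 at 12 h. Without 1 array they ran from 264 to 564 at 12 h, from 70 to 232 at 6 h and from 57 to 169 between the times. The stricter filter tests fewer probes. The fixed block leaves fewer degrees of freedom and draws nothing from the 12 h arrays that lay alone on a chip. The cause of these changes in number was not tested for any setting. Median centring moved the median of all probes to 0.13 at 6 h and to -0.20 between the times, from -0.01 and 0.00, and made 93.7% of calls at 6 h and 9.02% of those between the times higher, against 67.2% and 54.1%. Relative to that shift Fos, at -1.09 between the times, was lower and Atf3 higher as before.

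With the replicate number as a block, the called member probes numbered 7 (12 h), 6 (6 h) and 3 (12 h minus 6 h), and those of all probes 454, 125 and 104. The numbers are not known to pair the mice: 4 of 10 same-numbered pairs of arrays correlated above 0.1 in their deviations from group means, as did 8 of 30 pairs with different numbers, and 3 of 9 arrays matched their own number best. Of the pairs on the same chip 6 of 8 were above 0.1, with a median of 0.16, against 6 of 32 on different chips, with a median of -0.04. Of the 21 pairs of members, Fosb against Atf3 lost its call with median centring (exact permutation test, adjusted p = 0.0706), and Fosb against Jund gained one without background correction and with an offset of 50 (exact permutation test, adjusted p = 0.0353 in each). The within-chip values, the chip test and the test of pairs were chosen after seeing the data.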

Other observations

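Among the markers of stellate cells, of which 4 of 6 were measured, Lrat, the enzyme gene of retinyl ester storage, stood at 6.98, 6.20, 7.33 and 6.92 at 12 h, at 7.06, 7.23, 7.45 and 7.65 at 6 h, and at 7.79, 7.76 and 8.22 in controls. It fell against control by 1.07 ± 0.24 at 12 h (adjusted p = 0.0340 in limma), and the call was lost without any single control and without 12 h array 1, 2 or 4. Reln, a secreted glycoprotein gene, was lower at 12 h than at 6 h by a difference of -0.62 ± 0.12 (adjusted p = 0.0393), a call lost in 13 of 24 alternatives, among them the fits that left out 1 control, 1 array at 6 h, or array 1, 2 or 4 at 12 h.

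S100a9, the partner of S100a8, was detected on 4 of 4 arrays at 12 h, on 3 of 4 at 6 h and on no control. On the background-corrected scale it was at least 1.67-fold higher at 12 h and at least 1.98-fold higher at 6 h. It did not pass (adjusted p = 0.157 and 0.134 in limma), and these bounds were not computed on other scalings. Vegfa, an angiogenic factor gene among the AP-1 targets, was named after its values were seen, with 0.90 ± 0.22 over control at 12 h (adjusted p = 0.0558). Tgfb1 and Odc1, from the same list and also named after their values were seen, were lower than control at 12 h. Their differences were -0.64 ± 0.17 (adjusted p = 0.069 in limma) and -0.46 ± 0.15 (adjusted p = 0.130 in limma), and neither passed.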
